A study of Arabidopsis thaliana with 53 samples.

Results

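Of the 15928 accessible-chromatin peaks of untreated Arabidopsis thaliana mesophyll, 1358 shared no base with any peak of untreated root or of untreated guard cell. These 1358 peaks, called mesophyll-only peaks here, are described across all 18 peak lists of the study, which hold 353370 peaks. They were chosen from the peak calls of the 3 untreated lists, so their absence from the untreated root and guard cell lists is the rule and not a finding. Over all untreated mesophyll peaks, 83.3% shared a base with untreated root and 81.9% with untreated guard cell. The word mesophyll-only refers to those 3 lists alone.

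Mesophyll is the photosynthetic tissue of the leaf interior, where light harvesting, carbon fixation and most of photorespiration take place. ATAC-seq marks chromatin that the Tn5 transposase can reach, which is mostly promoters, enhancers and other regions bound by regulatory proteins. Abscisic acid (ABA) is the plant hormone of drought and salt stress, which closes stomata and acts in many tissues through kinases and through transcription factors of the ABF family.

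The study profiled 53 samples in 18 groups of the strain Col-0, with 1 pooled peak list per group. Nuclei were sorted by FACS from transgenic plants with a cell type-specific nuclear marker, EGFP fused to histone H2B. Wild-type (WT) groups were mesophyll (control and 4 h ABA, 4 samples each), whole seedling (control and 4 h ABA, 2 samples each), seedling root (control and ABA for 45 min, 2 h and 4 h) and guard cell. Guard cell, the cell type that flanks the stomatal pore, was profiled untreated, after 4 h and 24 h of ABA and after 4 h at 100 ppm or 1000 ppm CO2. The quadruple mutant abf1/2/3/4, which lacks 4 ABF transcription factors, was profiled as root (control, 45 min and 2 h ABA) and as guard cell (control and 4 h ABA). These root and guard cell groups had 3 samples each, except the abf1/2/3/4 root group at 45 min, which had 2. ABA was given at 50 µM and controls received ethanol, seedlings on plates and mature plants as a spray on the rosette. The sources used here do not say which promoter drove the marker in mesophyll, nor at which plant age mesophyll nuclei were taken. For the abf1/2/3/4 root group named 2 h by its titles, another label states 4 h.

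With 1 list per group there is no spread between replicates, so no difference below was tested. Ranges in parentheses after a share are exact (Clopper-Pearson) 95% intervals. They measure counting error alone, take every peak as independent of the next, and test no difference between lists or tissues. A peak counts as found in another list if it shares at least 1 bp with a peak of that list. The lists held from 15345 peaks (ABA-treated mesophyll) to 27514 (WT root, 2 h ABA). A region can be missing from a list through lower accessibility or through fewer reads or nuclei, and these cannot be told apart in the lists. The −log10 p of a peak is the authors' own value for that peak in that list, and values from different lists are set side by side without reading a change from them. As a check of the tissue, all 10 mesophyll marker genes had an untreated mesophyll peak inside or within 1500 bp, against 5 of 11 guard cell, 3 of 8 vascular, 2 of 6 epidermal and 4 of 12 root markers, and 57.1% of all protein-coding genes. The mesophyll markers also had an untreated root peak in 8 of 10 cases (73.9% of all genes) and an untreated guard cell peak in 9 of 10 (71.5%), so the presence of a peak separates these cell types only in part. This check concerns the whole mesophyll list. A mesophyll-only peak lay inside or within 1500 bp of 1 of 10 mesophyll and 1 of 11 guard cell markers, against 5.22% of all genes. Within 500 bp the numbers were 0 and 0, so these markers do not set the mesophyll-only peaks apart.

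Mesophyll-only peaks were mostly weak peaks of their list. Their −log10 p ranged from 3.13 to 19.9 with a median of 5.55, against a median of 7.10 for the other mesophyll peaks, and 18 of them stood among the 1000 highest. When the untreated mesophyll list was cut by −log10 p into 5 rank groups of equal size, mesophyll-only peaks made up 3.04% of group 1, the highest, then 5.40%, 8.41% and 10.5%, and 15.3% of group 5. Their median width was 326.5 bp, against 350 bp for the others. They lay on all 5 chromosomes, from 229 on chromosome 4 to 341 on chromosome 1, and made up between 7.48% (chromosome 5) and 9.41% (chromosome 2) of each chromosome's mesophyll peaks.

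The rule is a threshold on overlap, and few peaks lay close to it. The median gap from a mesophyll-only peak to the nearest peak of untreated root or guard cell was 1101.5 bp, 717 peaks had a gap of at least 1000 bp, and 17 had a gap under 100 bp. Nearest to the limit on the inside was chr4:13400045-13400484 at AT4G26540, with a gap of 30 bp. Nearest on the outside was chr2:13139826-13140634 at GSTF9, a glutathione transferase gene, which shared 7 bp with a root peak.

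After 4 h of ABA, 872 of the 1358 mesophyll-only peaks were found in the mesophyll list, which is 64.2% (61.6 to 66.8%). Over all untreated mesophyll peaks that share was 86.5%, and it was 88.6% among the peaks outside the mesophyll-only set. The gap was small among strong peaks and larger among weak ones. In rank group 1, 99.0% of mesophyll-only peaks (94.4 to 100.0%) and 99.8% of the others were found, in group 2 94.8% and 98.9%, and in group 3 81.3% (76.2 to 85.8%) and 96.4%. In group 4 the shares were 58.1% (52.6 to 63.4%) and 84.9%, and in group 5 41.3% (36.9 to 45.8%) and 59.6%. Peaks found after ABA had a median −log10 p of 6.42 in the untreated list, against 4.80 for the 486 that were not found.

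In untreated whole seedlings 419 mesophyll-only peaks were found, or 30.9% (28.4 to 33.4%), against 81.2% of all mesophyll peaks. In ABA-treated seedlings 351 were found, or 25.8% (23.5 to 28.3%), against 79.7% of all mesophyll peaks. Counting in every list only peaks that reach a −log10 p of 5, and choosing the set again from them, these shares were 19.5% and 16.9%, against 72.5% and 69.8% of all mesophyll peaks. Without that requirement the shares of the strongest peaks differed as well. In rank group 1, 74.2% (64.3 to 82.6%) of mesophyll-only peaks stood in the untreated seedling list against 98.9% of the others, and in group 5 14.6% (11.6 to 18.03%) against 67.1%. Seedlings hold roots, guard cells and other tissues beside mesophyll, and fewer mesophyll nuclei and less accessibility per nucleus cannot be told apart in such a list. By the rule, every other mesophyll peak stands in the untreated root or guard cell list, both of them tissues that seedlings hold.

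**Figure D1:**
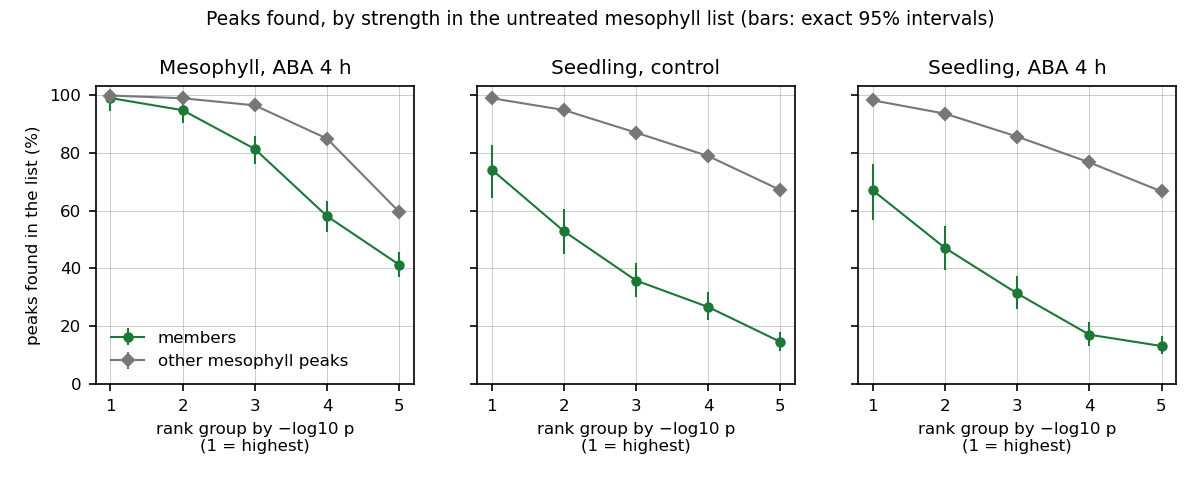
Share of peaks (y axis, %) found in the ABA-treated mesophyll list and in the 2 seedling lists, by rank group of −log10 p in the untreated mesophyll list (x axis, 1 is the highest), for mesophyll-only peaks (circles) and the other mesophyll peaks (diamonds), with exact 95% intervals as bars. In ABA-treated mesophyll the circles start at 99.0% and end at 41.3%, and in untreated seedling they run from 74.2% to 14.6%.

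The 3 lists combine into a few large classes. Both seedling lists and the ABA-treated mesophyll list held 260 mesophyll-only peaks, with a median −log10 p of 7.97. Another 478 were found in ABA-treated mesophyll and in neither seedling list, and 396 in none of the 3, with medians of 5.82 and 4.71. A seedling list held 45.2% (41.8 to 48.6%) of the peaks found after ABA and 18.5% (15.2 to 22.3%) of those not found. Of the 419 peaks in untreated seedling, 330 were also in ABA-treated mesophyll, which is 78.8% (74.5 to 82.6%). Peaks found after ABA were also the stronger ones, with a median −log10 p of 6.42 against 4.80. The part of peak strength in these shares was not tested, and no counterpart over the other mesophyll peaks was computed.

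Over all 17 other lists, 321 mesophyll-only peaks were found nowhere else (23.6%, 21.4 to 26.0%) and 451 in exactly 1 other list. The largest number of other lists was 10, for chr5:20169371-20169896 inside AT5G49665. None of the root and guard cell lists held 948 of the 1358 peaks, or 69.8% (67.3 to 72.2%). Each of the other 14570 mesophyll peaks stands in untreated root or guard cell by the rule. None of them can therefore be found nowhere else or in no root or guard cell list, and these shares have no counterpart.

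**Figure D2:**
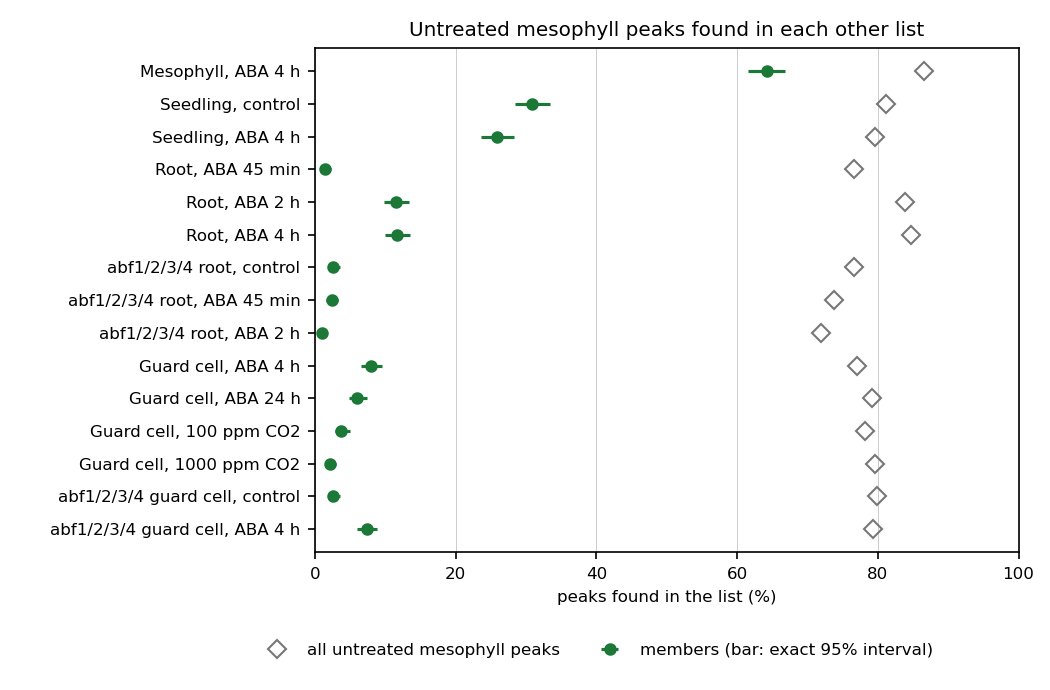
Share of untreated mesophyll peaks (x axis, %) found in each of the 15 lists that the rule did not use (y axis), for mesophyll-only peaks (circles, exact 95% intervals as bars) and for all untreated mesophyll peaks (diamonds). Mesophyll-only peaks reach 64.2% in ABA-treated mesophyll and 30.9% in untreated seedling, and at most 11.6% in a root or guard cell list, while all mesophyll peaks lie between 71.9% and 86.5%.

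Similar sets were formed for the other 2 tissues. Root peaks absent from untreated mesophyll and guard cell numbered 8116, and guard cell peaks absent from untreated mesophyll and root 3890. The share found in the same tissue after 4 h of ABA was 63.8% (62.7 to 64.8%) for the root set and 49.7% (48.1 to 51.3%) for the guard cell set, beside 64.2% for mesophyll-only peaks. The share found in untreated seedling was 9.81% for the root set, 5.06% for the guard cell set and 30.9% for mesophyll-only peaks, against 56.8%, 64.1% and 81.2% of all peaks of each list. Of the 3 sets, the mesophyll-only peaks had the highest seedling share in these lists, and the difference was not tested.

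Position relative to genes was read from summits and 27444 protein-coding genes. Mesophyll-only summits lay inside a gene in 40.5% of cases (37.9 to 43.2%), against 38.9% of the other mesophyll peaks. Within 1 kb of a gene they were less frequent, 34.1% (31.6 to 36.7%) against 48.0% (47.2 to 48.8%), and farther away more frequent, 25.4% (23.1 to 27.8%) against 13.04% (12.5 to 13.6%). Beyond 3 kb from any gene lay 9.72% against 2.86%. The surplus far from genes was present in all 5 rank groups, from 22.7% against 13.1% in group 2 to 32.0% against 13.95% in group 1. Such differences were not particular to mesophyll. The root set formed above lay within 1 kb in 32.9% of cases against 44.6% of all root peaks, and farther away in 19.9% against 15.0%. For the guard cell set these shares were 38.7% against 47.1% of all guard cell peaks, and 13.9% against 12.1%. Mesophyll-only peaks found in ABA-treated mesophyll lay inside a gene in 35.9% of cases (32.7 to 39.2%), and those not found in 48.8% (44.2 to 53.3%). Those not found were also weaker. By rank group the share inside a gene was 39.2% in group 1, 34.3% in group 2 and 43.7% in group 5. Among the other mesophyll peaks it was 35.3% in group 1 and 43.2% in group 5. The part of peak strength in this difference was not tested.

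Gene-poor stretches held a larger share of mesophyll-only peaks than of the others. In bins of 500 kb with fewer than 50 protein-coding genes lay 127 of them, or 9.35% (7.86 to 11.03%), against 2.74% (2.48 to 3.02%) of the other peaks. Of these 127 peaks 67.7% were found in ABA-treated mesophyll, close to the 63.9% elsewhere. In untreated seedling 14.2% (8.62 to 21.5%) of them were found, against 32.6% (30.0 to 35.3%) elsewhere. The other mesophyll peaks in such bins also had a lower share in untreated seedling, 70.9% (66.2 to 75.3%) against 85.9% of all other mesophyll peaks. On chromosome 3, 11 mesophyll-only peaks between 13812242 and 13869366 had AT3G33187 as their nearest protein-coding gene, at 151395 to 208347 bp. All 11 were found in ABA-treated mesophyll and 0 in untreated seedling. Summits inside tRNA genes were as frequent as among the other peaks, 24 of 1358 (1.77%) against 1.78%, and of these 24 peaks 22 were found in ABA-treated mesophyll and 0 in untreated seedling.

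Of the 20 highest-ranked mesophyll-only peaks, all 20 were found in ABA-treated mesophyll, 16 in untreated seedling, 16 in ABA-treated seedling and 9 in no root or guard cell list. None of them was found in an abf1/2/3/4 root list or in guard cell at 100 ppm CO2. Over all mesophyll-only peaks the abf1/2/3/4 root lists held between 0.957% and 2.58%, and the 100 ppm CO2 list 3.76%. With shares this low, absence among 20 peaks does not set the strongest peaks apart. Of the 20 peaks, 7 had the summit inside a protein-coding gene.

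**Figure D3:**
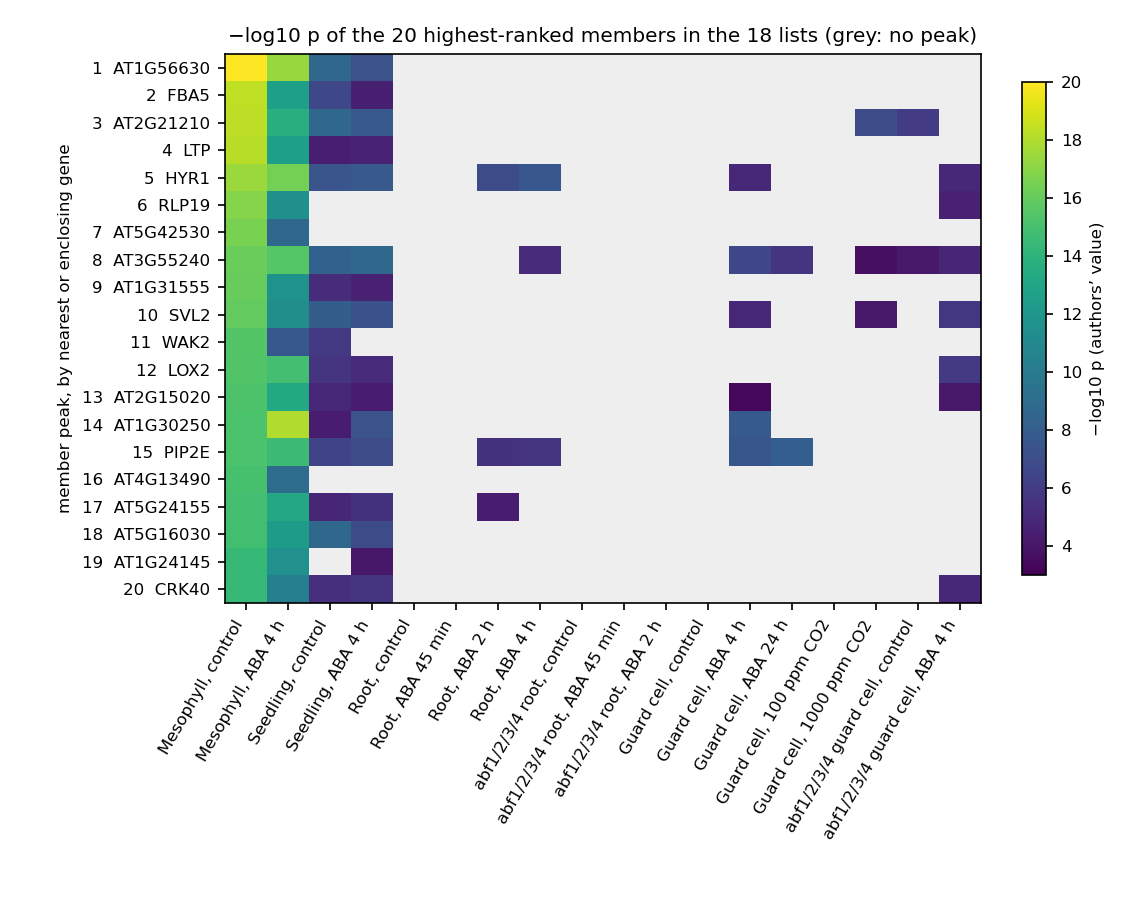
The authors' −log10 p (colour) of the 20 highest-ranked mesophyll-only peaks (y axis, named by the enclosing or nearest gene) in each of the 18 lists (x axis), with grey where no peak was listed. The untreated root and guard cell columns are grey by the rule, all 20 rows have a value in ABA-treated mesophyll, and 16 have one in untreated seedling.

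The strongest peak, chr1:21227921-21228607, lay 1116 bp from AT1G56630. Its −log10 p was 19.9 in untreated mesophyll, 17.4 in ABA-treated mesophyll, 8.70 in untreated seedling and 7.36 in ABA-treated seedling, with no peak in the other 14 lists. It was followed after 2436 bp by the first of 3 mesophyll-only peaks at PAP1, a MYB transcription factor gene that activates anthocyanin synthesis. These 4 peaks lie within 6733 bp. At PAP1, chr1:21233654-21234653 inside the gene had 10.8 in untreated and 10.6 in ABA-treated mesophyll and no peak elsewhere.

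FBA5, which encodes a fructose-bisphosphate aldolase, held the second, chr4:13390399-13391671 inside the gene. Its −log10 p was 18.4 in untreated mesophyll, 12.6 in ABA-treated mesophyll, 6.69 in untreated seedling and 4.53 in ABA-treated seedling. It had no root or guard cell peak in any list.

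LOX2, a chloroplast lipoxygenase gene of jasmonate synthesis, had 3 mesophyll-only peaks. The strongest, chr3:16524869-16525750, 44 bp outside the gene, had a −log10 p of 15.4 in untreated mesophyll, 14.9 in ABA-treated mesophyll, 5.54 in untreated seedling and 5.05 in ABA-treated seedling. The only other list with this peak was ABA-treated abf1/2/3/4 guard cell, with 5.89, and the WT guard cell lists had none. A second peak, chr3:16523930-16524642, was found in the same lists, and another, chr3:16528506-16529234 inside the gene, only in the 2 mesophyll lists (4.13 and 5.36). AOC2, an allene oxide cyclase gene named after its values were seen, held chr3:9406542-9407044 with 13.2 in untreated mesophyll, 10.9 in ABA-treated mesophyll and 3.75 in untreated seedling, and no peak in the remaining lists.

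LURP1, a gene induced by oomycete infection, was the nearest protein-coding gene of 5 such peaks, at up to 4616 bp. PR1, the classical marker of salicylic acid signalling, was that of 3, at 540 to 4782 bp. In the 50 kb of chromosome 2 from 6200001 to 6250000 these made up 8 of 9 mesophyll peaks. Of the 8, 7 were found in ABA-treated mesophyll and 0 in untreated seedling. For LURP1, chr2:6211468-6212818, 1585 bp outside the gene, had 13.8 in untreated and 8.73 in ABA-treated mesophyll. Closest to PR1, at 540 bp, chr2:6242996-6243413 had 8.6 and 7.06. The strongest of the 3, chr2:6236720-6237019, had 10.8 and 6.59, but lay 4782 bp from PR1 and 1006 bp from a pseudogene. Each of these peaks was absent from the other 16 lists. WAK1 and WAK2, wall-associated receptor kinases, had 1 each, chr1:7438949-7439627 (12.9 in untreated and 9.08 in ABA-treated mesophyll) and chr1:7444399-7445055 (15.4 and 7.67, and 5.89 in untreated seedling). ESM1, which modifies glucosinolate breakdown, had 4, of which 2 were found in ABA-treated mesophyll and 0 in untreated seedling.

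A neighbouring stretch of chromosome 2, from 6500001 to 6550000, held 12 mesophyll-only peaks among 16. LTP, a lipid transfer protein gene, was the nearest gene of 6, and the strongest, chr2:6523583-6524520, had 18.2 in untreated mesophyll, 12.6 in ABA-treated mesophyll, 4.44 in untreated seedling and 4.62 in ABA-treated seedling. RLP19, a receptor-like protein gene, held chr2:6533024-6535547 with 16.9 in untreated and 11.6 in ABA-treated mesophyll and no seedling peak. Its only further peak was in ABA-treated abf1/2/3/4 guard cell, with 4.58.

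**Figure D4:**
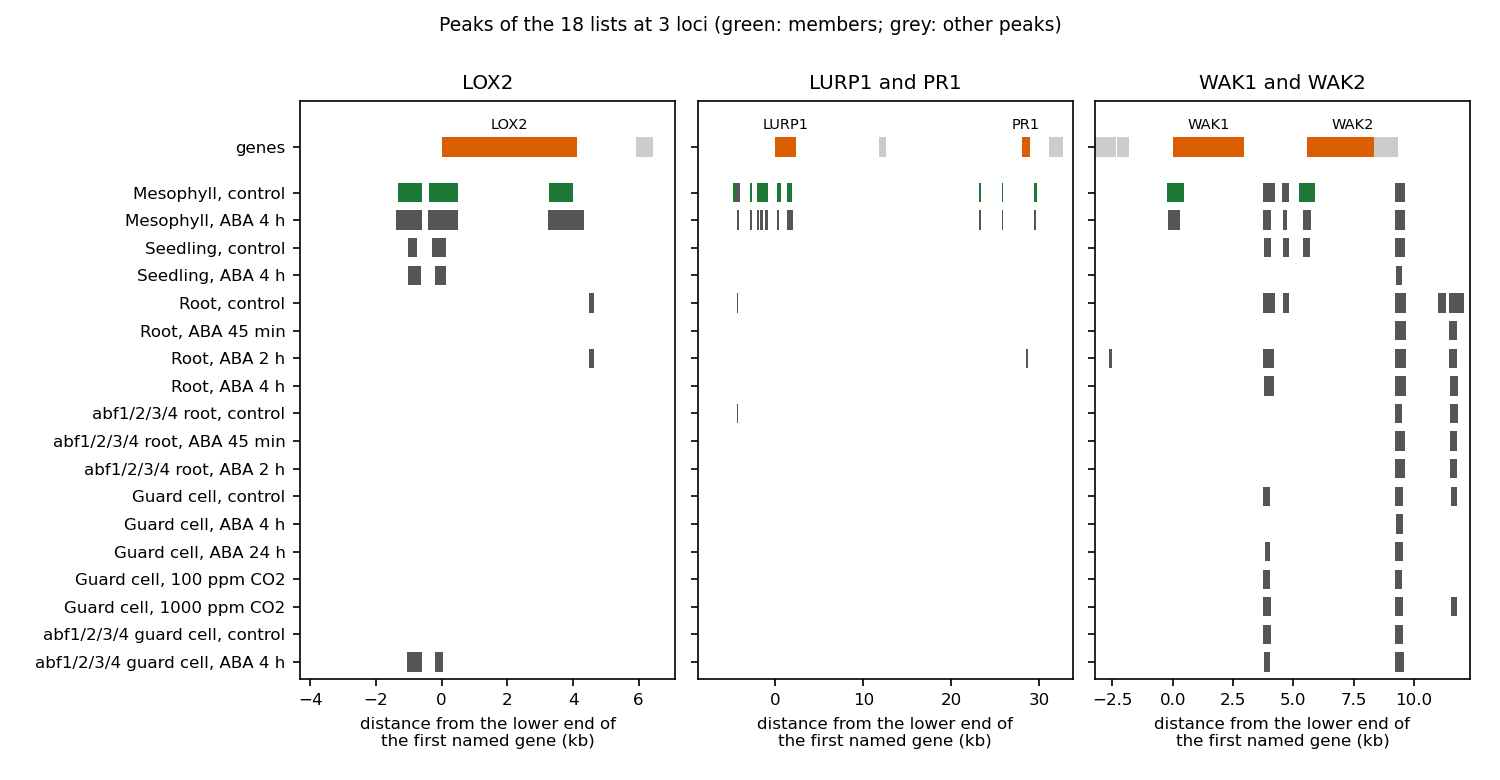
Peaks of the 18 lists (y axis, 1 row per list) at LOX2, at LURP1 and PR1 and at WAK1 and WAK2, by distance in kb from the lower end of the first named gene (x axis). Mesophyll-only peaks are green, other peaks grey, named genes orange and other protein-coding genes light grey. Both mesophyll rows carry peaks over the 3 loci, and the seedling rows carry none at the green LURP1 and PR1 peaks.

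Aquaporin PIP2E had 3 mesophyll-only peaks. The strongest, chr2:16292401-16293985, had 15.2 in untreated mesophyll, 14.7 in ABA-treated mesophyll, 6.47 in untreated and 6.91 in ABA-treated seedling. It was also found in WT root after 2 h and 4 h of ABA (5.49 and 5.65) and in WT guard cell after 4 h and 24 h of ABA (7.54 and 8.07). GNC, a GATA factor that promotes chlorophyll synthesis, and bHLH071 had 4 each. All 4 at bHLH071 were found in ABA-treated mesophyll and in untreated seedling. At GNC, 2 of 4 were found in ABA-treated mesophyll and 3 in untreated seedling. In all, mesophyll-only peaks had 1116 different nearest genes.

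Among the peaks not found after ABA, chr1:12342583-12343091, 2451 bp from AT1G33950, was the strongest. It had a −log10 p of 11.1 in untreated mesophyll and 4.67 in untreated seedling and no other peak. HEMG2, a protoporphyrinogen oxidase gene of tetrapyrrole synthesis, held the next, chr5:4582889-4583380, with 10.5 in untreated mesophyll and 5.64 in untreated seedling. The strongest peak found in no other list was chr4:2289656-2290603 inside CRK40, a cysteine-rich receptor-like kinase gene, with 10.3. A second peak inside the same gene, chr4:2288662-2289312, had 14.4 in untreated and 10.4 in ABA-treated mesophyll, 5.32 and 5.65 in untreated and ABA-treated seedling, and 4.90 in ABA-treated abf1/2/3/4 guard cell.

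Genes of photosynthesis carried weak mesophyll-only peaks, most of them inside genes and none of them found in seedling. Over all protein-coding genes 5.22% had a mesophyll-only peak inside or within 1500 bp. Of 86 genes in 5 lists (antenna, photosystem and electron transport, Calvin-Benson cycle, photorespiration and carbonic anhydrase, chlorophyll synthesis) 18 had one, which is 20.9%. Restricted to genes with any mesophyll peak, the shares were 21.7% of 83 genes and 9.13% of 15680. Within 500 bp the count was also 18, against 3.45% of all genes, and within 3000 bp 22, against 7.67%. The 18 genes had 19 mesophyll-only peaks, 17 of them inside a protein-coding gene and 10 inside the listed gene itself. In −log10 p they ranged from 3.64 to 11.4 with a median of 4.94, and 14 of 19 fell in rank groups 4 and 5. In ABA-treated mesophyll 6 of 19 were found, in a seedling list 0, and 11 were found in no other list. For scale, 48.1% of all mesophyll-only peaks in rank groups 4 and 5 were found in ABA-treated mesophyll and 19.5% in untreated seedling.

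**Figure D5:**
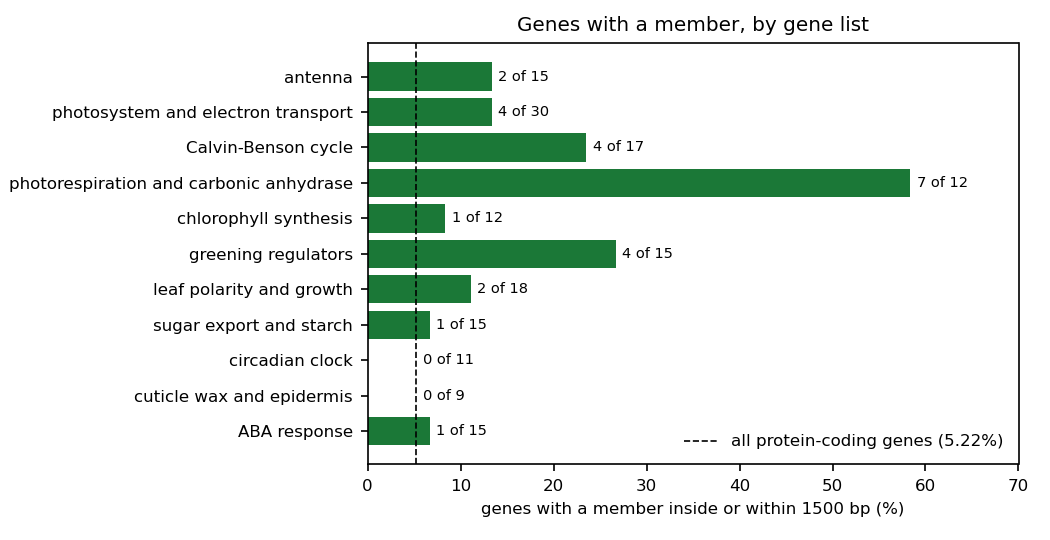
Share of the genes of each list (x axis, %) with a mesophyll-only peak inside or within 1500 bp, with the count beside each bar and the share over all protein-coding genes (5.22%) as a dashed line. The photorespiration and carbonic anhydrase list stands at 7 of 12 genes, and the circadian clock and cuticle lists at 0.

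Photorespiration recycles the product of oxygen fixation by Rubisco, and carbonic anhydrases interconvert CO2 and bicarbonate. Of 12 genes of this list 7 had a mesophyll-only peak, each inside the gene. AGT, the serine to glyoxylate aminotransferase of peroxisomes, held the strongest, chr2:5538266-5540304, with a −log10 p of 11.4 in untreated and 7.47 in ABA-treated mesophyll, and was found in 2 root or guard cell lists. GLDP1, a glycine decarboxylase subunit, held chr4:15926363-15927182 with 7.65 and 4.62. The other 5 were found in no other list: chr1:8268534-8269204 in GGT1, a glutamate to glyoxylate aminotransferase (6.45), chr5:4758832-4759188 in CA2, a carbonic anhydrase (5.44), chr3:4823702-4824368 in GOX1, a glycolate oxidase (4.94), chr1:26538139-26538403 in BCA4, a carbonic anhydrase (4.42), and chr1:25495720-25496162 in HPR, the peroxisomal hydroxypyruvate reductase (3.64).

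In the Calvin-Benson cycle 4 of 17 genes had one. PRK, phosphoribulokinase, held chr1:11534266-11534937 (7.42). GAPA, a subunit of plastid glyceraldehyde-3-phosphate dehydrogenase, held chr3:9796375-9797074 (4.34), and RBCS2B, a small subunit of Rubisco, had chr5:15380415-15380982 at 444 bp (4.87). GAPB, the other dehydrogenase subunit, had 2. None of these 5 peaks was found in ABA-treated mesophyll. For light harvesting and electron transport the peaks mostly sat over a neighbouring gene. Antenna genes with one were 2 of 15, LHCB6 and LHCB4.2, and photosystem genes 4 of 30, PSBP-1, PSAO, PSAH2 and PSAG. In chlorophyll synthesis CRD1 was the only gene of 12.

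Among greening regulators 4 of 15 genes had a mesophyll-only peak. PIF4, a phytochrome-interacting factor, had 2, and GNC, GLK2 (a regulator of chloroplast development) and SIG2 (a plastid sigma factor) had at least 1 within 1500 bp. The GLK2 peak lay inside the neighbouring CBP20, 924 bp away, and the SIG2 peak inside NPQ1, 129 bp away. The PIF4 peak chr2:17889089-17889720 had 10.7 in untreated mesophyll and was found in 8 other lists, while chr2:17888355-17888945 had 6.99 and was found in 2. Both touched 1 wide peak of ABA-treated mesophyll (12.6). Leaf polarity genes with one were 2 of 18, YAB5 and AFO, both YABBY factors. Sugar export and starch genes were 1 of 15, SWEET17, a vacuolar sugar transporter. The YAB5 peak lay 1395 bp away, and the SWEET17 peak 1429 bp away and nearer to AT4G15930. Within 500 bp the counts were 3 greening, 1 leaf polarity and 0 sugar export and starch genes. The circadian clock list had 0 of 11 and the cuticle list 0 of 9. Shares of 1 of 15 lie near the background of 5.22%.

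Gene families by symbol were read with a rule made after the values were seen, families of at least 5 genes with at least 3 genes carrying a mesophyll-only peak. IDD zinc-finger genes stood first with 6 of 9 genes, and SAUR genes, auxin-induced growth regulators, next with 10 of 16. CRK kinases followed among the larger families with 15 of 40, RLP receptor-like proteins had 12 of 52, and UMAMIT amino acid transporters 8 of 44. The background was 5.22% of all protein-coding genes and 9.13% of those with any mesophyll peak. Only genes whose symbol carries the family name were counted, so the families may be incomplete. Several of these genes stand in tandem arrays, where 1 peak can lie within 1500 bp of more than 1 gene. Of 19 peaks at CRK genes 12 were found in ABA-treated mesophyll and 2 in a seedling list, and of 11 at SAUR genes 4 and 9. Over all mesophyll-only peaks these shares were 64.2% and 35.6%, and the family counts were not tested.

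A part of the mesophyll-only peaks was found in root or guard cell under another treatment or genotype. In WT root the number was 20 after 45 min of ABA (1.47%, 0.902 to 2.27%), 156 after 2 h (11.5%, 9.84 to 13.3%) and 158 after 4 h (11.6%, 9.98 to 13.5%), against 76.7%, 83.8% and 84.8% of all mesophyll peaks. In abf1/2/3/4 root it was 35 untreated (2.58%), 32 after 45 min (2.36%) and 13 after 2 h (0.957%), against 76.6%, 73.7% and 71.9%. The WT root lists after 2 h and 4 h of ABA held 27514 and 25604 peaks, and the abf1/2/3/4 list after 2 h held 17705. The part of list length in these counts was not tested.

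In guard cell the WT list after 4 h of ABA held 108 (7.95%, 6.57 to 9.52%), that after 24 h 81 (5.96%), and the lists at 100 ppm and 1000 ppm CO2 51 (3.76%) and 29 (2.14%). Over all mesophyll peaks these shares were 77.0%, 79.1%, 78.1% and 79.7%. The abf1/2/3/4 guard cell lists held 35 untreated (2.58%) and 100 after 4 h of ABA (7.36%, 6.03 to 8.88%), against 79.9% and 79.4%. WT and abf1/2/3/4 guard cell after 4 h of ABA had 45 in common (3.31%, 2.43 to 4.41%). The same share over all mesophyll peaks was not computed, so agreement between the genotypes cannot be read from this count.

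Some of these were wide peaks that also covered a control peak. Of the 108 in ABA-treated guard cell 97 were separate peaks that touched no peak of untreated guard cell, and of the 158 in root after 4 h 140 were separate from untreated root peaks. At 100 ppm CO2 12 of 51 touched a control peak, with a median −log10 p of 14.4, against 4.68 for the separate ones.

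The same shares were read for mesophyll peaks that 1 of the other untreated tissues already had. Mesophyll peaks absent from untreated root but present in untreated guard cell numbered 1298, and 38.1% (35.5 to 40.8%) of them were found in root after 4 h of ABA, beside 11.6% of the mesophyll-only peaks. Of 1519 mesophyll peaks absent from untreated guard cell but present in untreated root, 19.1% (17.1 to 21.2%) were found in guard cell after 4 h of ABA, beside 7.95%. At 1000 ppm CO2 these shares were 3.49% (2.62 to 4.54%) and 2.14% (1.43 to 3.05%), and at 100 ppm 3.88% (2.97 to 4.98%) and 3.76% (2.81 to 4.91%). In abf1/2/3/4 root they were 2.85% (2.01 to 3.91%) and 2.36% (1.62 to 3.31%) after 45 min of ABA and 1.23% (0.706 to 1.99%) and 0.957% (0.511 to 1.63%) after 2 h. In WT root they were 3.93% (2.94 to 5.13%) and 1.47% (0.902 to 2.27%) after 45 min and 22.5% and 11.5% after 2 h. In abf1/2/3/4 guard cell after 4 h of ABA they were 17.8% (15.9 to 19.8%) and 7.36% (6.03 to 8.88%).

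A set of 43 mesophyll-only peaks was a separate peak both in WT guard cell and in WT root after 4 h of ABA. Of these 43, 40 were found in ABA-treated mesophyll, 35 in ABA-treated seedling and 24 in untreated seedling. Over all mesophyll-only peaks the shares were 64.2%, 25.8% and 30.9%. Those found in guard cell or in root after 4 h of ABA were found in ABA-treated mesophyll in 88.0% and 86.1% of cases. In lists that did not choose them, 32 were found in WT root after 2 h of ABA, 8 after 45 min and 29 in WT guard cell after 24 h. The ABA-treated mutant lists held 14 in guard cell and 4 in root at 2 h, and the untreated mutant lists 4 and 2. Over all mesophyll-only peaks, guard cell after 4 h of ABA held 7.95% in WT and 7.36% in the mutant. Root after 2 h of ABA held 11.5% and 0.957%, and the untreated mutant lists 2.58% each. The 43 were chosen by their peaks in WT lists, so WT and mutant numbers cannot be compared among them. At 100 ppm and 1000 ppm CO2 the numbers were 2 and 6.

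HYR1, a glycosyltransferase gene, had the strongest of the 43 in untreated mesophyll, chr3:7666407-7667250 at 288 bp. Its −log10 p was 17.5 in untreated and 16.4 in ABA-treated mesophyll, 7.47 and 7.75 in the seedling lists, 6.98 and 7.61 in root after 2 h and 4 h of ABA, and 4.98 in guard cell after 4 h, with 4.93 in ABA-treated abf1/2/3/4 guard cell. At SKS6 and at AIR3, a subtilase gene, the peak was absent from untreated seedling and present after ABA with 6.80 and 7.01.

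Outside these 43, AT5G45640 had a mesophyll-only peak whose counterpart in root after 4 h of ABA was a wide peak that also covered a control peak. The mesophyll-only peak, chr5:18506915-18507350, had 8.74 in untreated and 14.7 in ABA-treated mesophyll, no peak in untreated and 8.29 in ABA-treated seedling, 5.54, 13.1 and 13.4 in WT root after 45 min, 2 h and 4 h of ABA, and 7.69 and 12.8 in WT guard cell after 4 h and 24 h. The abf1/2/3/4 lists held it only in ABA-treated guard cell, with 4.41.

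Genes of ABA turnover and signalling appeared singly. CYP707A2, an ABA 8'-hydroxylase that inactivates the hormone, was the only gene of the 15 in the ABA response list with a mesophyll-only peak, chr2:12497202-12497776 inside the gene. It had 6.55 in untreated and 18.4 in ABA-treated mesophyll, no peak in untreated and 5.25 in ABA-treated seedling, 12.2 and 15.7 in WT guard cell after 4 h and 24 h of ABA and 4.68 at 1000 ppm CO2. No root list and no abf1/2/3/4 list held it. HAB1, a protein phosphatase that inhibits ABA signalling, had chr1:27393239-27393454 at 74 bp, with the summit inside a tRNA gene. It had 4.03 in untreated and 7.47 in ABA-treated mesophyll, 10.8 and 11.1 in root after 2 h and 4 h of ABA, 6.70 and 5.44 in guard cell after 4 h and 24 h, 12.0 at 100 ppm CO2 and 4.83 in untreated abf1/2/3/4 guard cell. OST1, an SnRK2 kinase gene among the guard cell markers, had chr4:16276214-16276371 at 1482 bp, nearer to AT4G33960. This peak had 4.81 in untreated and 6.56 in ABA-treated mesophyll and 15.3 at 100 ppm CO2, and was found in 7 other lists.

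ATBFRUCT1, a cell wall invertase gene, was found in more root and guard cell lists than any other. Its peak chr3:4533497-4534179 had 5.39 in untreated and 3.75 in ABA-treated mesophyll and none in seedling, and it was found in 5 root lists, from 3.90 to 5.17, and in 3 guard cell lists, from 5.11 to 6.53.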

How the data were processed

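Nuclei of 53 samples in 18 groups were profiled by ATAC-seq. The authors deposited 1 peak list per group in the narrowPeak layout of 10 columns, with 0 columns of per-sample values, so depth per sample is unknown. The submitters' processing notes name the build TAIR10 and list, without roles, Trim Galore 0.6.5, cutadapt, FastQC, SAMtools, bedtools 2.30, Picard, Genrich and deepTools 3.5.0. How samples were pooled and peaks were called is not given in the sources used here. The deposited −log10 p of each peak is uncorrected, since the q column held −1 in every row. The deposited score and area score, of at least 200.0, were used only to order ties. Coordinates are those of the files, written 1-based.

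Overlaps were computed in Python 3.11.15 with numpy 2.4.6, pandas 2.3.3 and scipy 1.17.1. They were tested on 1500 simulated peaks against bedtools 2.31.1, with 0 mismatches. A summit was assigned to the gene holding it, or else to the nearest, among the 27444 protein-coding genes of RefSeq for TAIR10.1, given without strand or exons. Table and lists were checked against each other: a gene end stood at most 150 bp from 47.0% of untreated mesophyll summits, and from 13.7% and 13.9% of them when summits were moved 5 kb to either side. For the mesophyll-only peaks these were 27.1%, 12.8% and 12.5%. Listed genes were matched by symbol, and 11 entries matched no gene or more than 1 and were left out. Genome sequence was not used here, so the planned motif counts were not run. No test was made. Most shares found in a single list stand beside the same share over all untreated mesophyll peaks, and main shares have an exact 95% interval. For combinations of lists that share was not computed.

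Peaks and lists were chosen with earlier results of these data known. The peaks named are the 20 of highest −log10 p, the 5 highest in each class of presence, those at genes with 3 or more, and those at listed genes. Peaks at WAK1, AOC2, HAB1, SKS6 and AIR3 and the 43 peaks shared by ABA-treated root and guard cell, and the 50 kb stretches were chosen after their values were seen. Alternatives were at least 50% of a peak covered, a summit inside the other peak, peaks widened by 100 bp, lists cut to the 15000 highest, a −log10 p of at least 5, and gene windows of 500 and 3000 bp.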

Additional observations from a re-analysis of the deposited data

How the results depend on the processing

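The set of 1358 mesophyll-only peaks became 2455 with every list, mesophyll included, cut to its 15000 highest peaks, and why was not tested. It stayed within 1.5 times under the other choices. The share found in ABA-treated mesophyll was 60.8% with at least 50% of the peak covered, 69.7% in the cut lists and 59.2% with a −log10 p of at least 5 in every list. Over all mesophyll peaks the last 2 of these became 88.0% and 82.7%. The share in untreated seedling was 27.7% with 50% covered and 19.5% with a −log10 p of at least 5, where all mesophyll peaks gave 72.5%. In ABA-treated seedling the same choices gave 23.3% and 16.9%, where all mesophyll peaks gave 69.8% at the stricter −log10 p. The share found in no other list was 27.7% with 50% covered, 18.2% in the cut lists and 28.9% with a −log10 p of at least 5. The share inside genes and the number of photosynthesis genes with a peak, 18 at 500 bp and 22 at 3000 bp, stayed within their bounds under the alternatives run. An alternative chosen after seeing the data, counting only peaks that touch no control peak, gave 7.14% in guard cell and 10.3% in root after 4 h of ABA. No paired analysis was possible because each group has 1 pooled list, and for the same reason no replicate could be left out. Depth per sample is unknown, so weak peaks can be missing from a list for lack of reads.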
